A study of Homo sapiens with 9 samples.

Results

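The core of the Hippo pathway was examined in a SLAM-Seq experiment through 10 of the 25797 genes in the deposited table. These were the transcriptional coactivators YAP1 and WWTR1 (the gene of TAZ), the DNA-binding factors TEAD1, TEAD2, TEAD3 and TEAD4, and the kinases STK3, STK4, LATS1 and LATS2. They were chosen by symbol, from the rows whose RefSeq identifiers map to them, which gave 31 deposited rows. Rows of a gene with equal length and equal values were used once, which left 13 distinct rows.

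The cells were MCF10A, a non-transformed human mammary epithelial line, in which the JUN gene had been knocked out. They had been reconstituted with a JUN allele fused to an auxin-inducible degron and infected with a construct for the auxin receptor TIR1. Every group carried these alleles, so that no library came from cells with an unmodified JUN gene. The group DMSO 4sU received the solvent DMSO for 1 h and then 100 µM 4-thiouridine (4sU) for 1 h, and the group IAA 4sU received 100 µM indole-3-acetic acid (IAA), an auxin, for 1 h and then the same pulse of 4sU. The group no 4sU Ctrl was not given 4sU, and the labels do not say whether these cells received DMSO. Each group had 3 samples, which the study describes as biological replicates. Transcripts synthesised during the pulse incorporate 4sU, whose alkylated form is sequenced as C in place of T. The T>C conversion rate of a 3′ interval, the share of its T positions read as C, therefore marks new RNA, and its library-scaled reads (CPM) give its total mRNA.

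In the Hippo pathway, the kinases STK3 (MST2) and STK4 (MST1) activate LATS1 and LATS2, which phosphorylate YAP and TAZ and keep them out of the nucleus. When the kinases are inactive, YAP and TAZ enter the nucleus and bind TEAD factors, often at enhancers where JUN and other AP-1 proteins bind nearby. LATS2 and AMOTL2 are themselves known target genes of YAP and TAZ and act back on them.

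The libraries held 18997637 to 24014195 reads each, recovered from the CPM steps. The IAA columns were identical in all 56868 rows and were counted as 1 library, so the comparison with IAA has no replicates on the IAA side and no test. All 8 epithelial markers examined, KRT5 and TP63 among them, were at 1 CPM or more in every library, whereas COL1A2, PTPRC, CD3E, CDH5 and VWF had no reads. Of the other fibroblast, immune and endothelial markers, COL1A1 (3.21 to 9.82) and DCN (3.66 to 7.29) passed 1 CPM in every library. CD14 was at 0.983 to 4.19 CPM. The lowest epithelial marker, KRT14, was at 3.63 to 10.6 CPM, so this cutoff alone does not separate the lists. Summed in DMSO 4sU, epithelial markers held 1475 to 1534 CPM and fibroblast markers 9.72 to 10.8 CPM. JUN mRNA was at 50.2 ± 6.60 CPM (SD, n = 3) without 4sU, at 25.4 ± 4.95 CPM with DMSO and 4sU and at 62.9 CPM with IAA. The degron acts on the protein, so this value does not check the depletion. Whether these reads came from the knocked-out JUN gene or from the degron allele was not tested. In bulk RNA, fewer cells and less RNA per cell cannot be told apart.

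Short stretches of sequence show which of the elements named above lie at the members that moved or were searched. Promoter windows from 250 bases before the start site onwards (RefSeq, GRCh38.p14) were held for 7 of the 10 genes, with 10 windows in all. They were searched on both strands for GGAATG, the core letters of TEAD sites, and for TGANTCA. The latter is wider than the AP-1 core TGA(C/G)TCA, since N stands for any letter. GGAATG occurred once in the window of YAP1, at position -162 from the start, and once in that of LATS2, at position 9. TGANTCA occurred once, in a window of LATS1, at position -245. The letters there are TGAATCA, whose middle A is not a letter of the AP-1 core. Of all 35116 promoter windows, 14.03% held GGAATG and 7.71% held TGANTCA. The 30 bases around each match are shown with the match in capitals, for YAP1 at chr11:102110273-102110302 on the + strand, LATS2 at chr13:21061560-21061589 on the - strand and LATS1 at chr6:149718322-149718351 on the - strand. A match describes letters only and is not a measured binding site.
YAP1: cgggagtgtgcaGGAATGtagcaacttgca
LATS2: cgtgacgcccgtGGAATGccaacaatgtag
LATS1: aggatTGAATCAaccaagtaggctgggcgg

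The reads came from the 3′ ends of the mRNAs, where AU-rich elements can shorten the life of a transcript. TATTTAT, an AU-rich core, occurred in the 3′ untranslated regions (3′ UTRs) of 7 members. Its share over all 3′ UTRs was not computed. STK3 and WWTR1 held 3 copies each, TEAD1 held 2, and TEAD2, TEAD3, LATS1 and LATS2 held 1 each. STK4, YAP1 and TEAD4 held 0. Copies thus lay at members with high and with low conversion rates. The first matches of TEAD3 and LATS2, the 2 members with the highest rates, are shown. That of WWTR1, whose rate was lower, is shown with them. The coordinates are those of GRCh37, the assembly known as hg19, and all 3 windows lie on the - strand, TEAD3 at chr6:35441647-35441676, LATS2 at chr13:21547228-21547257 and WWTR1 at chr3:149237984-149238013. The match is in capitals.
TEAD3: ccacctgtgggTATTTATgagtttcatatg
LATS2: agtttaactatTATTTATtgatatatcatt
WWTR1: ttattagtctgTATTTATaaaggcacacag

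The shorter core ATTTA was densest in the 3′ UTRs of STK3, with 4.94 copies per kb, and LATS1, with 4.75. It stood at 3.36 copies per kb in WWTR1, 3.27 in LATS2, 2.58 in YAP1, 2.26 in TEAD1 and 2.09 in STK4. The other TEAD genes had the fewest, with 1.38 copies per kb in TEAD2, 0.690 in TEAD3 and 0 in TEAD4. A relation of this density, or of TATTTAT, to the conversion rates was not tested.

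YAP1 and WWTR1 were expressed at close levels in every group. YAP1 (chr11:101981178-102104155, + strand, GRCh37) was measured in a 3′ UTR interval of 3486 bases. It stood at 41.0, 67.9 and 65.9 CPM in replicates 1, 2 and 3 of no 4sU Ctrl, at 52.4, 71.2 and 68.1 CPM in those of DMSO 4sU and at 58.1 CPM in the IAA values. Replicate 1 was the lowest in both groups and the groups overlapped. WWTR1 (chr3:149235022-149454501, - strand), with an interval of 3573 bases, stood at 40.9, 55.0 and 63.9 CPM without 4sU, at 57.8, 64.3 and 67.7 CPM with DMSO and 4sU and at 64.7 CPM with IAA. Here too replicate 1 was the lowest of each group. Per kb of interval, YAP1 was 0.921 to 1.27 times as high as WWTR1 over the 7 libraries, and it was the higher of the pair in 5 of them.

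With 4sU, the total mRNA of neither coactivator changed beyond the spread between replicates. The difference between DMSO 4sU and no 4sU Ctrl in log2(CPM + 1) was 0.11 (SE 0.24) for YAP1 and 0.22 (SE 0.21) for WWTR1, with Benjamini-Hochberg adjusted p of 0.917 and 0.789 in limma.

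The TEAD genes, which encode the DNA-binding partners of YAP and TAZ, differed in the number of reads they gave and in their order per length. TEAD1 (chr11:12695968-12966284, + strand) has an interval of 7518 bases, the longest of the 10 members. It stood at 75.8, 94.1 and 102 CPM without 4sU, at 76.7, 99.9 and 103 CPM with DMSO and 4sU and at 78.9 CPM with IAA, and it gave the most reads of the members in each library. TEAD2 (chr19:49843852-49865714, - strand), with 729 bases, stood at 12.2, 20.9 and 22.0 CPM without 4sU, at 24.5, 21.5 and 25.1 CPM with DMSO and 4sU and at 22.3 CPM with IAA. A single library, replicate 1 without 4sU, lay well below the others.

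TEAD3 (chr6:35441374-35464856, - strand), with 1450 bases, stood at 11.1, 15.5 and 15.5 CPM without 4sU, at 15.2, 13.7 and 14.8 CPM with DMSO and 4sU and at 17.9 CPM with IAA. TEAD4 (chr12:3068496-3149842, + strand) was read in the shortest interval of the members and stood at 7.51, 3.62 and 3.90 CPM without 4sU, at 6.999, 4.96 and 6.17 CPM with DMSO and 4sU and at 6.58 CPM with IAA. TEAD4 rested on 74 to 152 reads per library and, unlike the other members, was highest in replicate 1 of both groups. None of the 4 TEAD genes passed the test for a difference with 4sU in total mRNA. Their log2 differences were -0.0036 (SE 0.20) for TEAD1, 0.35 (SE 0.24) for TEAD2, 0.03 (SE 0.19) for TEAD3 and 0.24 (SE 0.24) for TEAD4.

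TEAD1 took 62.1% to 71.3% of the reads of the 4 TEAD genes over the 7 libraries. Scaled per kb of interval, its share was 11.4% to 18.3%, and TEAD2 and TEAD4 led. TEAD2 then held 23.2% to 41.0% and TEAD4 25.8% to 52.1% of the sum. The order of the TEAD genes thus depended on whether reads were divided by interval length, which for libraries made from 3′ ends is itself a choice.

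Of the upstream kinase genes, STK4 was read at a higher level in CPM than STK3 in each library. STK4 (chr20:43595135-43708662, + strand), with 4779 bases, stood at 29.6, 35.1 and 38.2 CPM without 4sU, at 47.3, 35.6 and 41.6 CPM with DMSO and 4sU and at 43.6 CPM with IAA. STK3 (chr8:99383456-99955055, - strand), with 1214 bases, stood at 5.09, 10.9 and 11.1 CPM without 4sU, at 8.31, 10.2 and 11.8 CPM with DMSO and 4sU and at 8.13 CPM with IAA. The groups of both genes overlapped, and their log2 differences of 0.23 (SE 0.18) and 0.17 (SE 0.29) did not pass the test.

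LATS1 and LATS2, the kinases that phosphorylate YAP and TAZ, had the 2 lowest log2 differences of the members. LATS2 (chr13:21547175-21635725, - strand), with 1836 bases, stood at 42.2, 45.8 and 50.0 CPM without 4sU, at 30.02, 32.1 and 34.6 CPM with DMSO and 4sU and at 30.8 CPM with IAA. All 3 libraries with DMSO and 4sU lay below all 3 without 4sU. The log2 difference was -0.54 (SE 0.16), with an unadjusted p of 0.0079 and an adjusted p of 0.196 in limma, so LATS2 was not called. In the fit blocked by replicate number its adjusted p in limma was 0.0819, and over all alternatives it lay between 0.0527 and 0.592.

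LATS1 (chr6:149979289-150039241, - strand) stood at 22.4, 39.1 and 46.6 CPM without 4sU, at 20.6, 29.8 and 29.2 CPM with DMSO and 4sU and at 22.5 CPM with IAA. It was lower with 4sU within each replicate number, but the groups overlapped because replicate 1 was low in both. The difference was -0.43 (SE 0.29), with an adjusted p of 0.686 in limma and of 0.268 in the limma fit blocked by replicate number. Its interval of 4086 bases belongs to a non-coding transcript and extends the 3′ UTR of 3579 bases of the coding one. Both hold nearly the same reads.

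**Figure D1:**
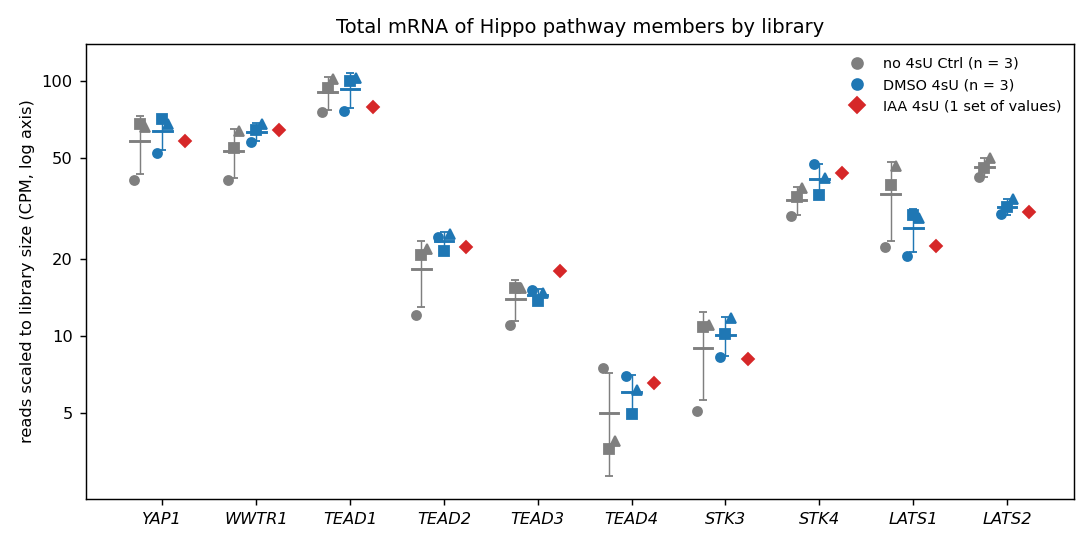
Total mRNA of the 10 members in CPM on a log axis, with 1 point per library (circle, square and triangle for replicates 1, 2 and 3), bars at the mean and whiskers for the SD (n = 3), and a diamond for the single set of IAA values. The points of LATS2 without 4sU lie above all of its points with 4sU, and for 6 members the circles (replicate 1) are the lowest points both without 4sU and with DMSO and 4sU.

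Among the 10 members, 0 were called in total mRNA, against 1.62% of the 11779 genes tested, which were called lower with 4sU, and 0 genes that were called higher. These calls used limma at an adjusted p under 0.05, and an unadjusted p under 0.05 was reached by 302 genes in the higher and 925 in the lower direction. The members' median log2 difference was 0.14, with 7 higher and 3 lower, beside a median of 0.03 over all genes tested. Of the members, LATS2 alone had groups that did not overlap, or 1 of 10 members against 19.5% of all genes tested. A member that missed the threshold is not shown to be equal between the groups, since the SE of the members reached 0.29 on the log2 scale.

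Replicate 1 was the lowest library both with and without 4sU for 6 members, YAP1, WWTR1, TEAD1, LATS1, LATS2 and STK3, and this was the case for 19.1% of all genes tested (6 members and 23.5% of genes with TMM-scaled CPM). In STK3, replicate 1 stood at -1.09 relative to the mean of the other two libraries without 4sU and at -0.37 with DMSO and 4sU on the log2 scale, and in LATS1 it stood at -1.02 and -0.51. The ratio of STK4 to STK3 reads was 5.81 and 5.69 in replicate 1 of the 2 groups and 3.22 to 3.52 in the other replicates. In the IAA values it was 5.37, close to that of replicate 1. Likewise the ratio of LATS2 to LATS1 reads was 1.88 and 1.46 in replicate 1, 1.07 to 1.19 in the other replicates and 1.37 in the IAA values.

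Compared per kb of interval, the members stood in the order TEAD2, TEAD4, YAP1, WWTR1, LATS2, TEAD1, TEAD3, STK4, STK3 and LATS1 in DMSO 4sU, from 32.5 to 6.49 CPM per kb. Only 2 neighbouring pairs in this order had ranges that did not overlap over the 3 libraries. TEAD4, at 30.1 CPM per kb, lay above YAP1, at 18.3, and LATS2, at 17.6 CPM per kb, lay above TEAD1, at 12.4. The ranges of YAP1, WWTR1 and LATS2 overlapped from neighbour to neighbour, as did those of TEAD1, TEAD3, STK4, STK3 and LATS1. This order rests on the division by interval length, which can favour short intervals in 3′ end libraries, and is not read as an order of abundance. In CPM, the means of DMSO 4sU placed TEAD1 highest, at 93.1, and TEAD4 lowest, at 6.04, with YAP1 at 63.9.

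During the pulse, most members took up 4sU, and LATS2, TEAD3 and STK4 did so at the highest rates. LATS2 had conversion rates of 0.0320%, 0.0470% and 0.0463% in replicates 1, 2 and 3 of no 4sU Ctrl, of 1.34%, 0.480% and 0.506% in those of DMSO 4sU and of 1.03% in the IAA values. Every labelled library lay above every unlabelled one, and the difference in log2(rate + 0.0005) was 3.02 (SE 0.41, adjusted p = 0.00089 in limma). Within DMSO 4sU, replicate 1 stood far above the other libraries. TEAD3 had 0.0853%, 0.0350% and 0.104% without 4sU, 1.39%, 1.32% and 0.396% with DMSO and 4sU and 1.25% with IAA, a log2 difference of 2.98 (SE 0.49, adjusted p = 0.0020 in limma). Its low library was replicate 3, and its rates rested on 297 to 329 reads per labelled DMSO library.

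STK4 had 0.0804%, 0.0357% and 0.0838% without 4sU, 0.592%, 0.386% and 0.469% with DMSO and 4sU and 0.478% with IAA, a log2 difference of 2.20 (SE 0.30). The mean rates with DMSO and 4sU placed TEAD3 at percentile 96.6, LATS2 at 94.5 and STK4 at 86.5 of the 6805 genes tested. The medians of the DMSO 4sU libraries lay between 0.178% and 0.236%, and these 3 members, TEAD1 and WWTR1 had rates above them in each of the 3 libraries.

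TEAD1, WWTR1 and LATS1 had lower rates. TEAD1 stood at 0.0586%, 0.0694% and 0.0626% without 4sU, at 0.319%, 0.320% and 0.327% with DMSO and 4sU and at 0.276% with IAA. The difference was 1.71 (SE 0.24) on the log2 scale. WWTR1 stood at 0.0501%, 0.0331% and 0.0752% without 4sU, at 0.321%, 0.252% and 0.250% with DMSO and 4sU and at 0.218% with IAA, a difference of 1.67 (SE 0.26). LATS1 stood at 0.0269%, 0.0411% and 0.0460% without 4sU, at 0.199%, 0.207% and 0.178% with DMSO and 4sU and at 0.389% with IAA, a difference of 1.48 (SE 0.22). With all distinct intervals of LATS1 averaged, the difference was 1.86 and the call was lost, with an adjusted p of 0.0758 in limma (0.00125 to 0.0758 over its fits). In none of these 3 genes did a labelled library reach down to an unlabelled one.

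YAP1 was labelled less than WWTR1. Its rates were 0.0287%, 0.0451% and 0.0919% without 4sU, 0.161%, 0.194% and 0.122% with DMSO and 4sU and 0.206% with IAA. The log2 difference of 1.02 (SE 0.29) passed the test with an adjusted p of 0.0166 in limma. Without replicate 1 or without replicate 2 of no 4sU Ctrl, the adjusted p in limma was 0.0623 and 0.0540, and over all alternatives it ran from 0.0041 to 0.0623. In DMSO 4sU the ranges of YAP1 and WWTR1 did not overlap, as the highest rate of YAP1 was below the lowest of WWTR1. In total mRNA their ranges overlapped.

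TEAD2, STK3 and TEAD4 had the lowest rates and gave no call. TEAD2 stood at 0.0402%, 0.0801% and 0.0669% without 4sU, at 0.0894%, 0.190% and 0.0738% with DMSO and 4sU and at 0.103% with IAA, and its groups overlapped (log2 difference 0.53, SE 0.31, adjusted p = 0.153 in limma). STK3 stood at 0.0403%, 0 and 0.0369% without 4sU, at 0.130%, 0.0162% and 0.280% with DMSO and 4sU and at 0.140% with IAA. Its log2 difference of 1.11 (SE 0.57) had an adjusted p of 0.113 in limma, and its mean of 203 reads was just above the minimum of 200 reads for this test. TEAD4, with a mean of 117 reads, was below it. It was listed at 0.0662%, 0 and 0 without 4sU, at 0.210%, 0 and 0.172% with DMSO and 4sU and at 0.399% with IAA.

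**Figure D2:**
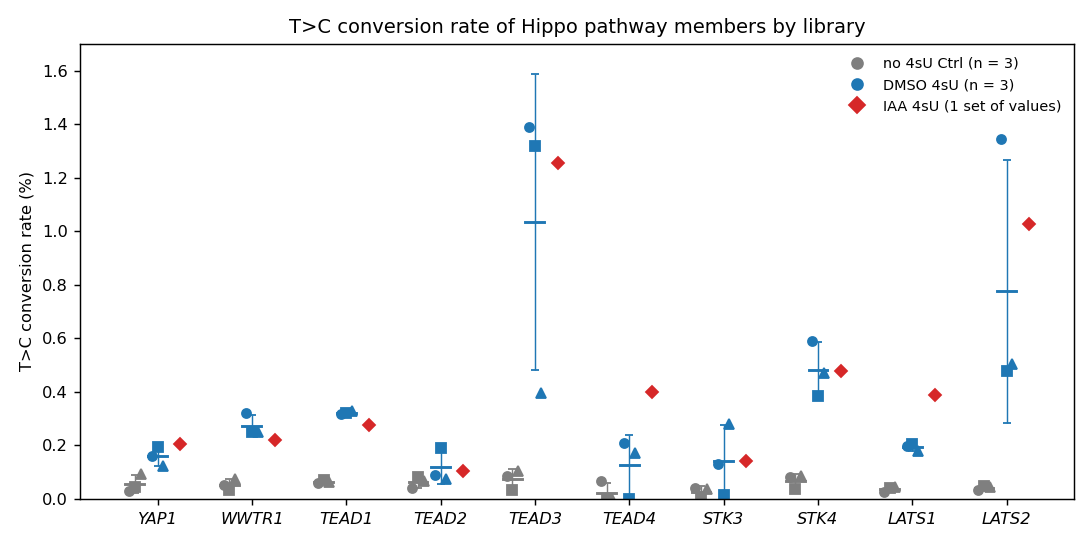
T>C conversion rate of the 10 members in percent, with 1 point per library (circle, square and triangle for replicates 1, 2 and 3), bars at the mean and whiskers for the SD (n = 3), and a diamond for the IAA values. The 3 libraries of TEAD3 and LATS2 with DMSO and 4sU spread from 0.396% to 1.39% and from 0.480% to 1.34%, whereas those of TEAD1 lie within 0.319% to 0.327%.

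Of the 9 members tested, 7 were called higher in conversion rate with 4sU, against 66.3% of all 6805 genes tested, and the same 7 had groups that did not overlap, against 72.8%. The shares of members called and of members without overlap were thus near those of all genes. The median log2 difference was 1.67 for the members and 1.12 over all genes tested. Ordered by mean rate in DMSO 4sU, the members ran TEAD3, LATS2, STK4, TEAD1, WWTR1, LATS1, YAP1, STK3, TEAD4 and TEAD2. In this order the neighbours STK4 and TEAD1, and WWTR1 and LATS1, had ranges that did not overlap, and all other neighbours overlapped. The paralogs LATS1 and LATS2 did not overlap in rate, nor did STK3 and STK4, and in both pairs the more labelled gene also gave more reads in each library. Per kb of interval, STK4 was above STK3 in only 3 of the 7 libraries.

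LATS2 combined a high rate with the lowest log2 difference in total mRNA, and this combination was common among rapidly labelled genes. Of the 375 genes with a rate at least that of LATS2, the median log2 difference in total mRNA was -0.40, 72 were called lower by limma and 39.7% had a lower difference than LATS2. TEAD3, with a higher rate, stood at 0.03. Spearman's rho between the rate in DMSO 4sU and the log2 difference was -0.47 over the 9 members and -0.43 over the 6805 genes. These points share their libraries, both measures use the same DMSO 4sU libraries, and the genes are not independent replicates, so both values are descriptions.

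**Figure D3:**
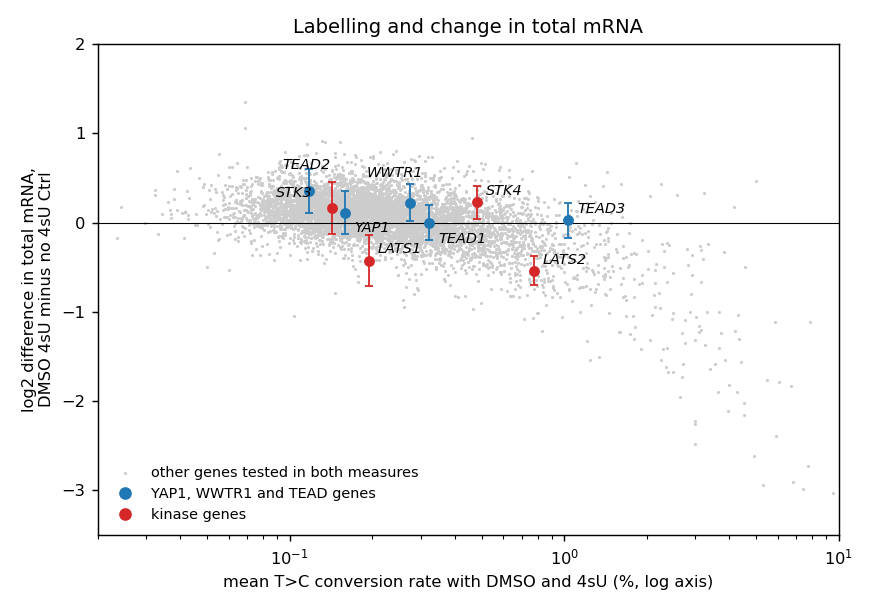
Log2 difference in total mRNA between DMSO 4sU and no 4sU Ctrl against the mean T>C conversion rate in DMSO 4sU (percent, log axis). Grey points are genes tested in both measures, blue points YAP1, WWTR1 and 3 TEAD genes, red points the 4 kinase genes, and whiskers the SE. LATS2 lies at a rate of 0.776% and a log2 difference of -0.54, and TEAD3 at 1.03% and 0.03.

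The values with IAA address whether loss of JUN protein alters these genes. A gene was called when its IAA value differed from the mean of DMSO 4sU by 1 log2 unit or more and fell outside the range of that group. In total mRNA this was met by 0 of 10 members and by 0.136% of the 11775 genes compared. Outside the range alone were 5 members, against 41.7% of all genes. TEAD3 was 0.20 above the mean of DMSO 4sU in log2(CPM + 1). The other four were below it, TEAD1 at -0.31, TEAD2 at -0.16, LATS2 at -0.14 and STK3 at -0.35. The median of the members was -0.15, with 2 higher and 8 lower, beside -0.0016 over all genes. Without TMM scaling, only TEAD3 (0.28) and STK3 (-0.27) lay outside the range, and WWTR1 (0.03) and STK4 (0.08) turned to the higher side. When DMSO replicate 1 was left out, 8 members lay outside the range of the others, and 7 when replicate 2 was. For 6 of the 10 members the DMSO library nearest to the IAA values was replicate 1, as it was for 51.4% of all genes. Whether this and the differences from the mean have a common source was not tested.

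In conversion rate, centred on the median of each library, 0 of 9 members met the same rule, against 9.02% of the 6820 genes compared, and 3 lay outside the DMSO range, against 49.6%. LATS1 was 0.73 above the mean of DMSO 4sU on the log2 scale (SD of the DMSO libraries 0.17), at 0.389% against 0.178% to 0.207%. With the rates of all its distinct intervals averaged, one of which has 100 bases and few reads, this difference was 0.18. WWTR1 was at -0.39 and TEAD1 at -0.31. YAP1 was at 0.18 and LATS2 at 0.42, both within the DMSO range. These values depended on single DMSO libraries, with 0.09 to 0.35 for YAP1 and 0.22 to 0.76 for LATS2 when 1 of them was left out. Leaving out 1 DMSO library put 4 to 6 members outside the range, and STK4, at -0.11, stood at 0.0084 in rates that were not centred. With 1 library on the IAA side, none of these differences can be set against a replicate error of that group.

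**Figure D4:**
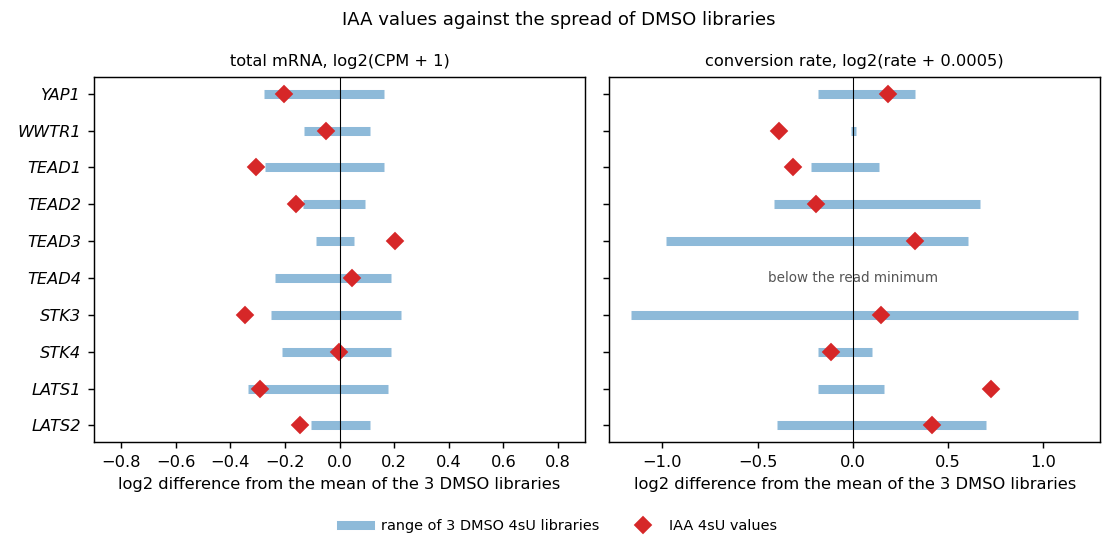
Log2 difference of the IAA values (red diamonds) from the mean of the 3 DMSO 4sU libraries for each member, beside the range of these libraries (blue bars), in total mRNA on the left and in median-centred conversion rate on the right. In total mRNA the diamonds lie between -0.35 and 0.20, and in conversion rate LATS1 lies farthest from its bar, at 0.73.

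Correlations were taken over 6813 genes with at least 200 reads on average across the 7 libraries. The 3 genes whose log2 CPM correlated most with YAP1 were COMMD2 (Pearson's r of 0.999), ISOC1 (0.996) and ACSL3 (0.995). Those nearest to WWTR1 were PDIA4 (0.990), MAPK1IP1L (0.988) and NUDT21 (0.988), and those nearest to LATS2 were PLAGL2 (0.993), RIN2 (0.992) and ABL2 (0.990). STK3 and TEAD4 were below this minimum of reads and were not compared. Among the other members, YAP1 correlated most with TEAD1 (0.891, rank 549 of the 6813 genes) and WWTR1 (0.866, rank 686). WWTR1 correlated most with TEAD2 (0.924, rank 212). LATS2 correlated most with LATS1 (0.824, rank 329) and had an r of -0.05 with WWTR1. Many genes outside the pathway thus ranked above the members. The correlations are over 7 libraries in which replicate 1 stands apart for many genes, and describe these libraries only.

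Of 31 other genes of the Hippo pathway, among them adaptors, junction proteins and phosphatase subunits, 28 were tested in total mRNA. By limma 0 were called, and 0 had an unadjusted p under 0.05, with a median log2 difference of -0.03. The largest absolute differences were those of AJUBA, a LIM protein that inhibits LATS kinases (-0.47, SE 0.25), AMOTL2, an angiomotin that binds YAP (-0.31, SE 0.26), and MOB1B, a cofactor of LATS kinases (0.29, SE 0.18). In conversion rate 23 could be tested, of which 20 were higher with 4sU and 0 lower, with a median log2 difference of 1.45, beside 66.3% called higher and a median of 1.12 over all genes tested. NF2, SCRIB and STK38 were not called. AMOTL2, also a target gene of YAP and TAZ, had a rate of 3.16% with DMSO and 4sU, at percentile 99.4 and above each of the 10 members.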

How the data were processed

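Alkylated RNA was read as 3′ end libraries (QuantSeq), for which the authors ran the nf-core slamseq pipeline (Nextflow), whose version is not given in the sources used here. Per the labels the build was hg19. The deposited table gives, for each 3′ interval and library, the conversion rate as a fraction and a library-scaled signal named CPM. CPM values were whole multiples of 1 read in 100% of non-zero cases (tolerance 0.1 reads), which gave 18997637 to 24014195 reads per library. The T coverage behind a rate was not used here, so its counting error is unknown. Of the per-sample columns, 0 were left unused.

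RefSeq identifiers were matched to symbols through the RefSeq gene table of GRCh38.p14 (97.7% of rows). Of a gene's distinct intervals, that with the most reads was used. Coordinates are from GENCODE for GRCh37. Interval lengths equalled annotated 3′ UTRs for all members but TEAD2, LATS2 and STK4, which differed by up to 4 bases, and LATS1, whose longer interval is described in the results.

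Total mRNA was compared with limma (3.58.1, R 4.3.3; trend, robust) on log2(CPM + 1) with TMM scaling, for genes with at least 0.5 CPM in 3 of 6 libraries. These fold changes understate changes of low genes. Conversion rates were compared with limma on log2(rate + 0.0005), for genes with a rate above 0 in 3 of 6 libraries and at least 200 reads on average. Calls used a Benjamini-Hochberg adjusted p under 0.05 over all genes tested. IAA values, taken as 1 library, were called when outside the DMSO range and at least 1 log2 unit from its mean, in genes with at least 0.5 CPM in 2 of 4 libraries. Alternatives were edgeR (4.0.16), DESeq2 (1.42.0), other pseudocounts, filters, scalings and intervals, rate times CPM, a replicate block and leaving out each library. For this comparison of DMSO 4sU with no 4sU Ctrl, the tests were run on simulated data in which 200 genes were changed. limma recovered 200 of them with 14 false calls among 214 in total mRNA (11684 genes, 3-fold) and 199 with 11 false calls among 210 in rates (6787 genes, 9-fold). The spread between simulated replicates was a set value and was not taken from these libraries. The 3-fold change also exceeded the total mRNA differences of all members. The recovery therefore does not give the power of the tests for the members. Replicate numbers paired the libraries in total mRNA, as deviations from group means correlated by 0.39, 0.31 and 0.36 for replicates 1, 2 and 3. The main fits did not use this pairing, which entered only through the replicate block.

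The members, gene lists, thresholds and the named genes (the members, the 3 other Hippo genes with the largest difference in total mRNA, and the 3 genes nearest to YAP1, WWTR1 and LATS2) were chosen with earlier results of these data known. AMOTL2's rate, and NF2, SCRIB and STK38, were named after their values were seen. Tables were handled in scipy 1.17.1, numpy 2.4.6 and pandas 2.3.3 under Python 3.11.15.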

Additional observations from a re-analysis of the deposited data

How the results depend on the processing

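No member was called in total mRNA with 4sU under any alternative run, and the number of called genes, 191, became 405 with DESeq2 and 78 to 263 when 1 library was left out. TEAD1, with a difference near 0, changed sign with edgeR (0.0010) and without TMM (0.038). Leaving out 1 library gave differences of -0.16 to 0.25 for YAP1, -0.17 to 0.12 for TEAD1, -0.16 to 0.13 for TEAD3, -0.20 to 0.36 for STK3, -0.76 to -0.18 for LATS1, 0.06 to 0.53 for TEAD2, 0.0064 to 0.40 for WWTR1, 0.09 to 0.34 for STK4 and 0.09 to 0.49 for TEAD4. In conversion rate 6 to 8 of 9 members were called. LATS1 lost its call with all distinct intervals averaged (difference 1.86 in place of 1.48), and YAP1 in the fits named in the results. With IAA, the genes called in total mRNA, 16, became 27 without TMM, 45 with a pseudocount of 0.5 and 13 to 102 when 1 DMSO library was left out, with 102 without replicate 1. Of the 16, 81.3% were higher, and 92.6% without TMM. The 615 called in rate became 2335 without a minimum of reads, where 1 member, TEAD4, was called, and 131 with a pseudocount of 0.002. Of the 615, 46.5% were higher, against 61.7% of those called in rates not centred. Causes were not tested.

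With the replicate number as a block, 254 genes were called in total mRNA, 189 of them shared with the fit without it, and 0 members. Rates of same-numbered libraries did not deviate together (r of -0.018, -0.016 and 0.00053). The block gave 4284 calls in rate in place of 4512 and 8 members in place of 7, with STK3 added (adjusted p = 0.0386 in limma, 0.0386 to 0.234 over its fits). It changed no other call of a member. Depth limits TEAD4 and STK3 most, at 74 to 152 and 103 to 246 reads per library.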
